A study of Mus musculus with 107 samples.

Results

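The genes described here are 10 genes of dendritic cells (DC), chosen by name: Xcr1, Clec9a, Batf3, Flt3, Zbtb46, Ccr7, Fscn1, Ccl17, Ccl22 and Il12b. Each matched 1 row of a table of 50686 genes. The RNA came from tumors of 12 syngeneic models, that is, mouse cancer cell lines grown under the skin of the right flank in immunocompetent mice of a matching strain. Base tumors (n = 35) were taken untreated at about 100 mm3, whereas NT tumors (n = 36) and LEN tumors (n = 36) were taken on day 8. LEN mice received lenvatinib, an inhibitor of the VEGF receptors and FGF receptors, by mouth at 10 mg/kg each day over 7 days, and NT mice were left without treatment. Each model had 3 tumors per group, except for MC38 Base with 2. The models were BNL 1ME A.7R.1 and Hepa 1-6 (liver), Renca and RAG (kidney), LL/2 and KLN205 (lung), CT26.WT and MC38 (colon), 4T1 and EMT6 (breast), MBT2 (bladder) and B16-F10 (melanoma). The hosts were BALB/cAnNCrlCrlj for BNL 1ME A.7R.1, RAG, Renca, CT26.WT, EMT6 and 4T1, C57BL/6NCrl for MC38 and B16-F10, C57BL/6JCrl for LL/2, C3H/HeNCrl for MBT2, DBA/2NCrl for KLN205 and C57L/J for Hepa 1-6, all implanted at 7 weeks of age. Each model is 1 cell line in 1 strain, RAG cells had been adapted in vivo, and Hepa 1-6 and BNL 1ME A.7R.1 grew in males and the others in females, so that cell line, strain and sex cannot be told apart, except among RAG, Renca, CT26.WT, EMT6 and 4T1 and between MC38 and B16-F10, where strain and sex were shared.

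Dendritic cells take up antigen and present it to T cells. Conventional DC arise from precursors that need the cytokine receptor Flt3 and carry the transcription factor Zbtb46. The cross-presenting type 1 subset (cDC1) depends on Batf3, and is marked by the chemokine receptor Xcr1 and by Clec9a, a receptor for dead cells. A DC that matures in a tissue switches on Ccr7, which guides it along Ccl19 and Ccl21 to the draining lymph node, and Fscn1, which bundles actin. Mature DC also make Ccl17 and Ccl22, the ligands of Ccr4 on regulatory and helper T cells, and Il12b, the p40 subunit shared by interleukin 12 and interleukin 23. Several of the 10 genes are not confined to DC. Ccr7 is also carried by naive T and B cells, Fscn1 by many cancer cells and endothelial cells, and Zbtb46 by endothelial cells. Ccl17, Ccl22 and Il12b are also carried by activated macrophages or Langerhans cells. In bulk tumor RNA, fewer cells of a type and less RNA per cell cannot be told apart.

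Values are TPM (transcript abundance scaled for transcript length and for the total of each tumor), which the authors deposited without read counts, so the depth behind a value is unknown. The share of TPM from protein-coding genes ranged from 37.1% to 60.5% in Base, from 40.5% to 62.3% in NT and from 27.5% to 66.6% in LEN tumors. The lowest share was in 4T1 LEN replicate 4, where the non-coding RNA Gm26917 took 24.2% of the TPM. The labels do not say whether the tumors of a group came from separate litters or cohorts, so p-values measure the spread between tumors.

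In treatment-naive tumors, Fscn1 was by far the most abundant of the 10 genes per unit length and Xcr1, Il12b and Flt3 the least. Hepa 1-6 tumors had the highest mean of Batf3, Zbtb46, Ccr7, Ccl17 and Ccl22, and KLN205 tumors the lowest of Xcr1, Clec9a, Flt3, Ccr7 and Il12b. The median over 35 Base tumors was 114 TPM for Fscn1, 3.96 for Zbtb46, 3.37 for Batf3, 2.45 for Ccr7, 2.19 for each of Ccl17 and Ccl22, 1.14 for Clec9a, 0.94 for Flt3, 0.44 for Il12b and 0.32 for Xcr1. All 10 genes differed between the 12 models by limma's F test on log2(TPM + 1) (largest adjusted p = 0.00167, Il12b), but 86.1% of the 25664 genes tested did so as well. The plot of Base tumors by model shows that the genes did not share 1 order of models.

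**Figure D1:**
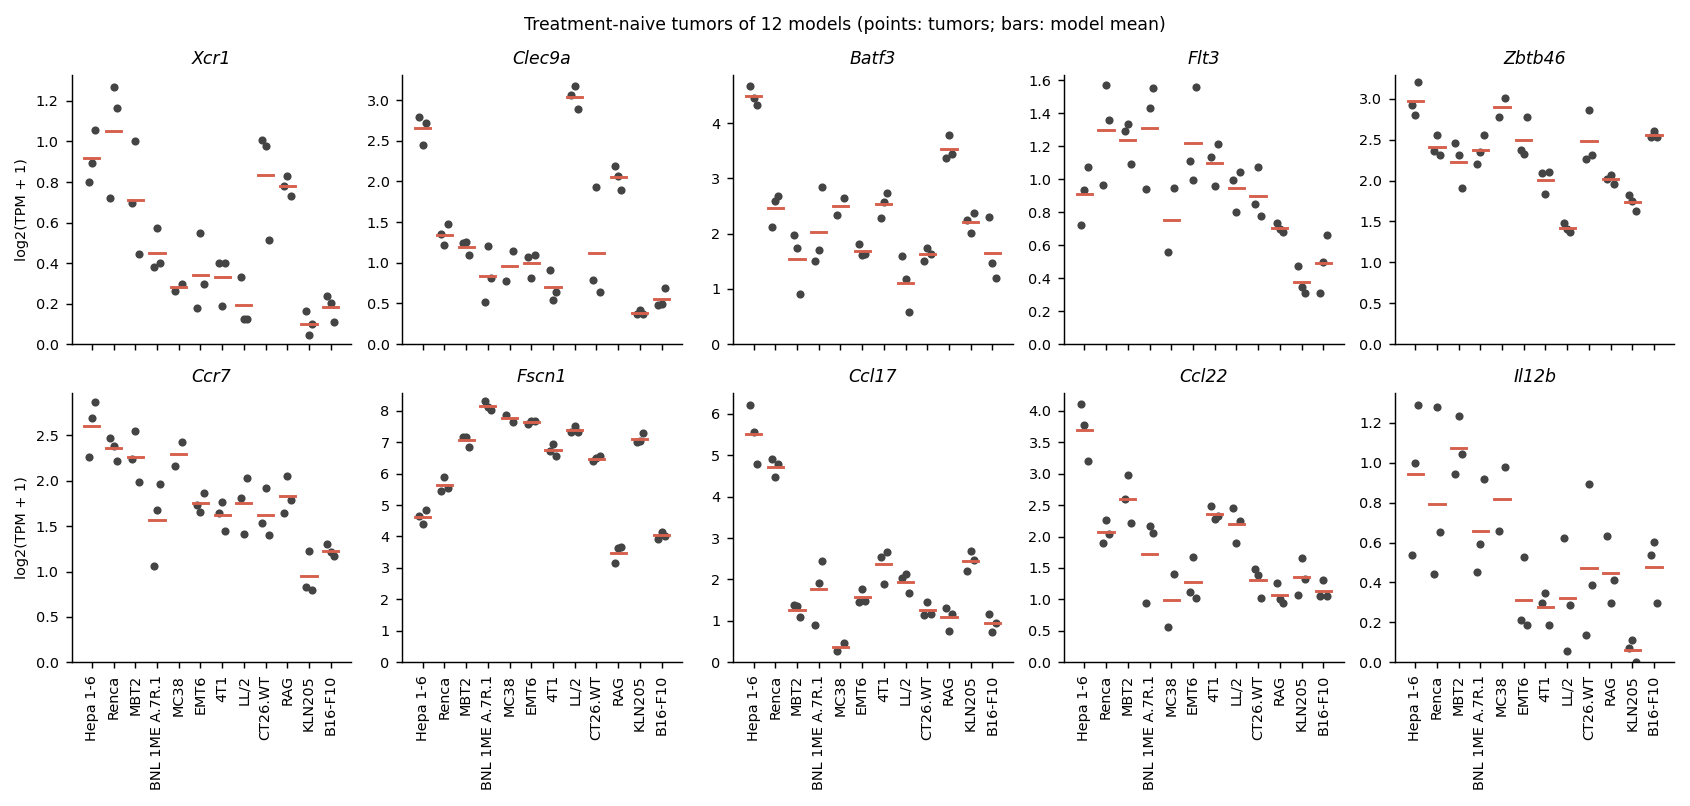
Levels of the 10 genes in the treatment-naive tumors, as log2(TPM + 1) on a separate vertical axis for each gene; points are tumors, red bars are means over the 3 tumors of a model (2 for MC38), and models run from the lowest to the highest mean rank over the 10 genes (Hepa 1-6, 2.8, to B16-F10, 9.4). Fscn1 steps widely between models, whereas the Xcr1 and Il12b points of neighboring models overlap.

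Of the cDC1 genes, Clec9a was read at 7.33, 8.03 and 6.44 TPM in LL/2 and at 5.95, 4.44 and 5.58 TPM in Hepa 1-6, against 0.29, 0.34 and 0.29 TPM in KLN205. The LL/2, Hepa 1-6 and RAG tumors did not overlap with each other, and 1 CT26.WT tumor (2.81 TPM) reached into the range of RAG (2.72 to 3.56 TPM). Xcr1 did not follow Clec9a in LL/2: its values there were 0.26, 0.09 and 0.09 TPM, 10th of the 12 models, and Batf3 was lowest in LL/2, at 2.03, 1.25 and 0.49 TPM. Batf3 was highest in Hepa 1-6, at 24.55, 20.88 and 19.22 TPM, followed by RAG at 9.37, 12.73 and 9.93 TPM, and both models stood above all others without overlap. Xcr1 was highest in Renca, at 0.65, 1.41 and 1.24 TPM, but each of the 11 steps between neighbors in its order overlapped. A step exceeded the larger SD of its 2 models in 5 of 11 cases for Clec9a, 2 for Batf3 and 1 for Xcr1. LL/2 thus held the highest Clec9a mean beside the lowest Batf3 mean, although its Batf3 values overlapped with those of the next model.

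For the genes of all conventional DC, levels varied less. Flt3 ranged from a model mean of 0.30 ± 0.079 TPM (SD, n = 3) in KLN205 to 1.52 ± 0.53 TPM (SD, n = 3) in BNL 1ME A.7R.1, and Zbtb46 from 1.68 ± 0.11 TPM (SD, n = 3) in LL/2 to 6.91 ± 1.2 TPM (SD, n = 3) in Hepa 1-6. Steps larger than the SD numbered 2 of 11 for Flt3 and 3 of 11 for Zbtb46. B16-F10, which was 11th or lower for Xcr1, Clec9a, Flt3, Ccr7, Fscn1 and Ccl17, was 3rd for Zbtb46, at 4.81, 5.09 and 4.8 TPM.

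Among the genes of mature DC, Ccl17 had the widest range. It was 73.24, 46.13 and 26.82 TPM in Hepa 1-6 and 28.91, 21.10 and 26.76 TPM in Renca, and 0.21 and 0.37 TPM in MC38. The ratio of the highest to the lowest model mean was 168 for Ccl17, against 11.6 for Ccl22, 5.47 for Ccr7 and 25.6 for Il12b. Hepa 1-6 and Renca overlapped in Ccl17, and both were above the other 10 models. Ccl22 was also highest in Hepa 1-6 (16.29, 12.61 and 8.16 TPM), with no overlap with the second model, MBT2 (5.06, 6.90 and 3.62 TPM). Below Hepa 1-6, the other 10 steps of Ccl22 were within the spread of the tumors. Ccr7 ranged from 0.947 ± 0.34 TPM (SD, n = 3) in KLN205 to 5.18 ± 1.3 TPM (SD, n = 3) in Hepa 1-6, and exceeded the SD at 2 of its 11 steps. Il12b was highest in MBT2 (0.92, 1.35 and 1.06 TPM) and was listed at 0 in 1 KLN205 tumor, and only its last step, from 4T1 to KLN205, exceeded the SD.

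Fscn1 followed an order of its own. BNL 1ME A.7R.1 was highest, at 317.58, 274.62 and 257.49 TPM, and RAG lowest, at 7.82, 11.38 and 11.77 TPM. Hepa 1-6, which led 5 of the other genes, was 10th for Fscn1, at 23.91, 19.87 and 27.41 TPM. The gap between neighbors exceeded the larger SD at 9 of 11 steps. Over the 36 model-by-group means of log2(TPM + 1), Pearson's r of Fscn1 with the other 9 genes ran from -0.42 (Batf3) to 0.20 (Flt3). These means share tumors, strain and library scaling, and the r values are descriptions.

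From Base to NT, 9 of the 10 genes fell on the mean over models. Base and NT tumors came from different mice and differed in time of sampling, and which instrument ran which tumor is not given. Time, tumor growth and any difference between runs therefore cannot be told apart here. By limma on log2(TPM + 1), at an adjusted p of 0.05 over 25687 genes, 9 of 10 were lower and 0 higher, where 11.4% of all genes were lower and 11.7% higher. At an unadjusted p under 0.05 the counts were also 9 and 0. With the replicate number as a block, fewer members were called lower, with the count given at the end. The median change of the 10 genes was -0.28, and that of all genes tested -0.0028. The change was -0.54 (SE 0.095; adjusted p = 3.22e-05) for Ccl17, -0.39 (SE 0.087; adjusted p = 0.000642) for Ccl22 and -0.32 (SE 0.066; adjusted p = 0.000232) for Ccr7. It was -0.38 (SE 0.094; adjusted p = 0.00194) for Batf3, -0.32 (SE 0.050; adjusted p = 4.44e-06) for Flt3 and -0.22 (SE 0.050; adjusted p = 0.000865) for Il12b. The changes of Clec9a, Zbtb46 and Xcr1 were -0.23 (limma adjusted p = 0.00510), -0.15 (adjusted p = 0.0167) and -0.11 (adjusted p = 0.0267). Leaving out Renca ended the calls of Clec9a (-0.17, adjusted p = 0.0708), Zbtb46 (-0.079, adjusted p = 0.282) and Xcr1 (-0.061, adjusted p = 0.289). Leaving out EMT6 ended that of Zbtb46 (-0.11, adjusted p = 0.0840), and leaving out MBT2 that of Xcr1 (-0.096, adjusted p = 0.0674). Fscn1 differed by 0.050 (SE 0.052; adjusted p = 0.529), and this sign flipped when TPM was rescaled to the upper quartile (-0.0033) or to protein-coding genes (-0.014). The same rescalings changed the balance over all genes from 2917 lower and 3002 higher to 4651 and 1500, and to 5038 and 1275, with 9 members lower and 0 higher in each. On this scale, with 1 added to each TPM, the changes of scarce genes such as Xcr1, Flt3 and Il12b come out smaller than their ratios.

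The NT mean was below the Base mean in 11 of 12 models for Flt3, and in 10 for Xcr1, Ccr7 and Ccl17. For Clec9a it was below in 6 models and above in 6. The change differed between models for 9 of the 10 genes by limma's F test, as it did for 50.2% of all genes. Without Renca it differed for 5 of the 10 genes. Within single models, 9 of 118 tests of a member passed, 7 lower and 2 higher, against 1.09% lower and 3.72% higher of all gene-by-model tests. Of the 7, 4 were in Renca, where 4.66% of genes were lower. Renca Batf3 was 3.37, 5.04 and 5.38 TPM in Base and 1.14, 0.63 and 0.79 TPM in NT (-1.58, adjusted p = 0.0120). Clec9a was 1.55, 1.32 and 1.78 TPM in Base Renca and 0.25, 0.33 and 0.39 TPM in NT Renca (-0.94, adjusted p = 0.0170), and Zbtb46 was 4.16, 4.88 and 3.95 TPM against 1.66, 1.98 and 1.81 TPM (-0.92, adjusted p = 0.0212). The Base and NT tumors did not overlap in any of these. Renca Ccl17 also fell (-0.89, adjusted p = 0.0236), from 28.91, 21.10 and 26.76 TPM to 13.51, 14.77 and 11.67 TPM, while Ccr7 and Ccl22 did not pass there (0.072 and 0.070). All 4 Renca calls were lost without Renca NT replicate 3 (limma adjusted p from 0.0505 to 0.0651). Over the 6 fits that each left out 1 Renca tumor, the call was lost in 6 for Zbtb46, 5 for Ccl17, 3 for Clec9a and 1 for Batf3. The other 3 falls were of Ccr7 (-0.89, adjusted p = 0.0190) and Ccl17 (-0.87, adjusted p = 0.0334) in EMT6, where 3.02% of genes were lower, and of Ccl17 in LL/2 (-1.41, adjusted p = 0.0453), where 0.923% were lower and 1 NT tumor was listed at 0. The 2 rises were of Fscn1, in BNL 1ME A.7R.1 (0.52, adjusted p = 0.00962) and KLN205 (0.49, adjusted p = 0.0178), models in which 15.4% and 15.6% of all genes were higher. Of the 9 calls, 8 were lost on leaving out 1 tumor or another, the exception being Fscn1 in BNL 1ME A.7R.1. The Ccl17 call was lost in 6 of 6 such fits in LL/2 and in 5 of 6 in EMT6. The Ccr7 call in EMT6 was lost in 5 of 6, and the Fscn1 call in KLN205 in 2 of 6. Both Fscn1 rises missed the threshold after rescaling to the upper quartile (adjusted p = 0.0565 and 0.460) or to protein-coding genes (adjusted p = 0.0559 and 0.478). Groups that did not overlap numbered 29 lower and 5 higher of 118 for the members, and 13.2% and 13.4% over all genes. The study's own two-group test called 0 of the 118 cases after adjustment.

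Whether 7 days of LEN moved these genes was read from LEN against NT tumors of the same day. Ccr7, Ccl22, Ccl17, Il12b and Flt3 were higher in LEN tumors, whereas Xcr1, Clec9a, Batf3, Zbtb46 and Fscn1 did not pass. Thus limma called 5 of 10 genes higher and 0 lower on the mean over models (6 and 0 at an unadjusted p under 0.05), against 10.7% higher and 7.56% lower of 25636 genes tested. Rescaling to the upper quartile or to protein-coding genes changed the balance over all genes from 2747 higher and 1938 lower to 2648 and 3417, and to 2901 and 3031, with 5 members higher and 0 lower in each. With the replicate number as a block, fewer members were called higher and Fscn1 was called lower, with the counts given at the end. The median change was 0.17 for the 10 genes and 0.00043 for all genes. Ccl22 rose by 0.49 (SE 0.083; limma adjusted p = 9.62e-06), Ccr7 by 0.49 (SE 0.078; adjusted p = 2.64e-06), Ccl17 by 0.40 (SE 0.10; adjusted p = 0.00286), Il12b by 0.29 (SE 0.042; adjusted p = 3.04e-07) and Flt3 by 0.26 (SE 0.046; adjusted p = 3.18e-05). Ccr7 and Flt3 were higher in 11 of 12 models, and Ccl17, Ccl22 and Il12b in 10. The remaining differences were 0.089 (SE 0.078; adjusted p = 0.494) for Clec9a, 0.078 (SE 0.037; adjusted p = 0.151) for Xcr1, 0.024 (SE 0.093; adjusted p = 0.904) for Batf3, -0.036 (SE 0.046; adjusted p = 0.658) for Zbtb46 and -0.067 (SE 0.050; adjusted p = 0.405) for Fscn1. The sign for Batf3 flipped when 1 of 2 tumors or 1 of 3 models was left out. Without the 4T1 LEN tumor rich in Gm26917, the same number of members was called (5 higher, 0 lower), with changes of 0.53 for Ccr7 and 0.45 for Ccl17. Without BNL 1ME A.7R.1, Ccl17 was 0.28 (adjusted p = 0.0760), and without RAG, Xcr1 was 0.082 (adjusted p = 0.0458). Both comparisons use the NT tumors: the members' values from Base to NT and from NT to LEN are therefore set side by side, and no relation between them was tested.

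**Figure D2:**
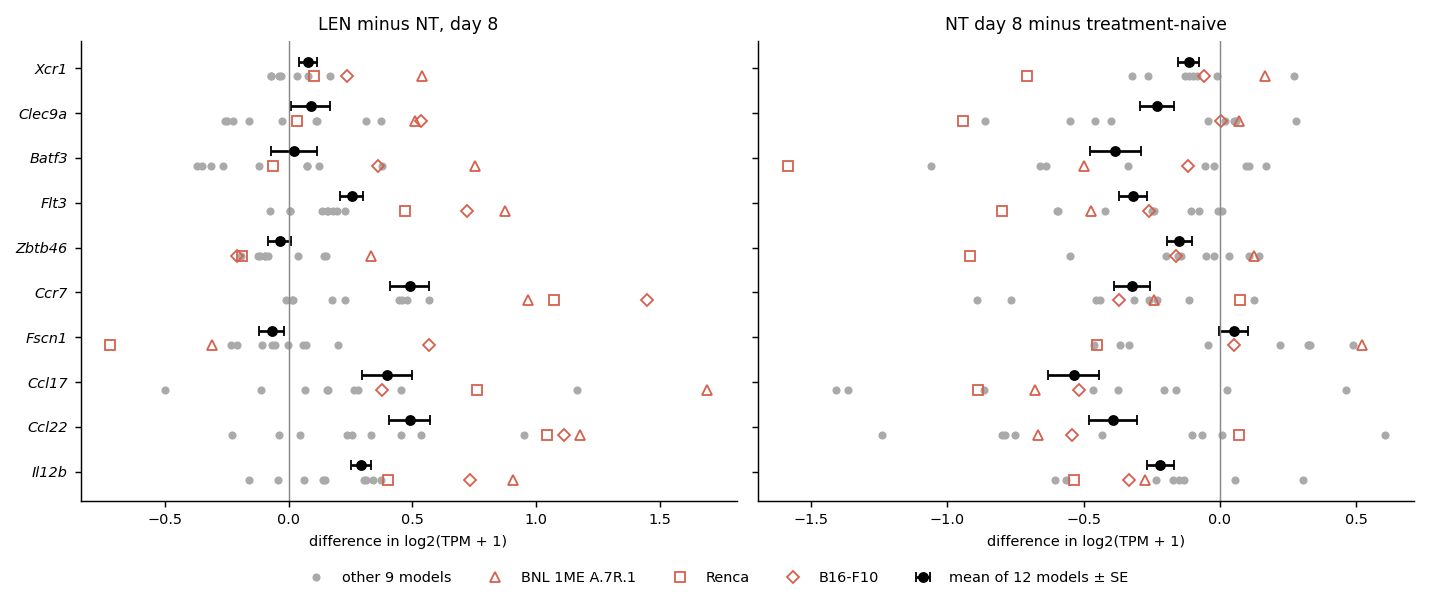
Change of each gene from NT to LEN (left) and from Base to NT (right), in log2(TPM + 1). Small symbols are single models, with diamonds for B16-F10, triangles for BNL 1ME A.7R.1, squares for Renca and grey circles for the other 9, leaving out models in which a gene was below a mean of 0.1 TPM. Black points are the mean of 12 models with its SE, which comes from the spread between tumors and not between models. At left Ccr7, Ccl22, Ccl17, Il12b and Flt3 lie to the right of 0, and the 3 named models have the largest changes for these genes except Ccl17. For Ccl17, Hepa 1-6 (1.16) lies above Renca (0.76) and B16-F10 (0.38), and MBT2 (0.46) lies above B16-F10. At right 9 of the 10 black points lie to the left of 0.

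The size of the LEN change differed between models for 6 of the 10 genes (Flt3, Ccr7, Fscn1, Ccl17, Ccl22 and Il12b) by limma's F test, as it did for 28.7% of all genes. This count fell to 1 without BNL 1ME A.7R.1, 2 without B16-F10 and 3 without Renca, and to 1 with the replicate number as a block. Within single models, 16 of 118 tests of a member passed, 14 higher and 2 lower, where 2.57% of all gene-by-model tests were higher and 0.874% lower. All 16 were in B16-F10, Renca and BNL 1ME A.7R.1, which are also the models with the highest shares of all genes called: 19.9% higher and 3.75% lower in BNL 1ME A.7R.1, 6.48% and 1.44% in B16-F10, and 3.48% and 5.02% in Renca. In each of the other 9 models at most 0.363% of all genes passed in either direction. Groups that did not overlap numbered 25 higher and 5 lower of 118 for the members, and 11.7% and 9.86% over all genes. The study's own two-group test called 0 of the 118 cases after adjustment.

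Ccr7, the receptor for migration to the lymph node, passed in all 3 models. In B16-F10 it was 0.79, 1.25 and 0.48 TPM in NT and 4.50, 3.86 and 3.54 TPM in LEN (1.45, SE 0.19; adjusted p = 0.00880). In Renca it was 4.99, 4.16 and 4.07 TPM in NT and 8.87, 11.99 and 10.35 TPM in LEN (1.07, SE 0.14; adjusted p = 0.00579). In BNL 1ME A.7R.1 it was 1.72, 1.42 and 1.40 TPM in NT and 3.09, 4.00 and 4.79 TPM in LEN (0.97, SE 0.17; adjusted p = 0.00827). Each LEN tumor of these models was above each NT tumor, and the Renca LEN tumors were the highest of all tumors in the series. In B16-F10 the LEN tumors were also above the Base tumors, at 1.47, 1.32 and 1.25 TPM. MC38 was a further model without overlap (2.56, 3.47 and 2.88 TPM in NT against 3.98, 4.17 and 5.23 TPM in LEN), but it did not pass (0.46, SE 0.15; adjusted p = 0.461). The 4T1 LEN tumors were spread widely, at 3.57, 0.51 and 2.43 TPM, the lowest being the tumor rich in Gm26917.

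Ccl22 passed in the same 3 models. Its values were 1.13, 1.29 and 0.82 TPM in NT and 2.85, 3.81 and 4.56 TPM in LEN for BNL 1ME A.7R.1 (1.18, SE 0.19; adjusted p = 0.00553). They were 3.71, 3.66 and 2.89 TPM against 7.66, 9.42 and 7.33 TPM for Renca (1.05, SE 0.14; adjusted p = 0.00664). B16-F10 went from 0.44, 0.74 and 0.39 TPM to 1.81, 3.21 and 1.97 TPM (1.11, SE 0.20; adjusted p = 0.0231). The groups did not overlap in any of the 3. Ccl17, whose protein binds the same receptor, passed in BNL 1ME A.7R.1, from 1.11, 1.88 and 0.55 TPM to 4.94, 6.60 and 6.00 TPM (1.69, SE 0.24; adjusted p = 0.00385). It also passed in Renca, from 13.51, 14.77 and 11.67 TPM to 21.41, 25.66 and 22.70 TPM (0.76, SE 0.11; adjusted p = 0.00976). The LEN values of Renca were thus in the range of its Base tumors. In B16-F10, Ccl17 stayed near the lower end, with 0.41, 0.75 and 0 TPM in NT and 0.92, 0.71 and 0.65 TPM in LEN (0.38, SE 0.22; adjusted p = 0.361). Hepa 1-6, the model with the most Ccl17, had 14.45, 13.64 and 24.22 TPM in NT and 28.90, 49.29 and 41.74 TPM in LEN without overlap, but did not pass (1.16, SE 0.26; adjusted p = 0.121). Ccl22 did not pass there either, at 3.44, 3.60 and 7.01 TPM against 8.72, 10.38 and 9.66 TPM (0.95, SE 0.24; adjusted p = 0.140).

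**Figure D3:**
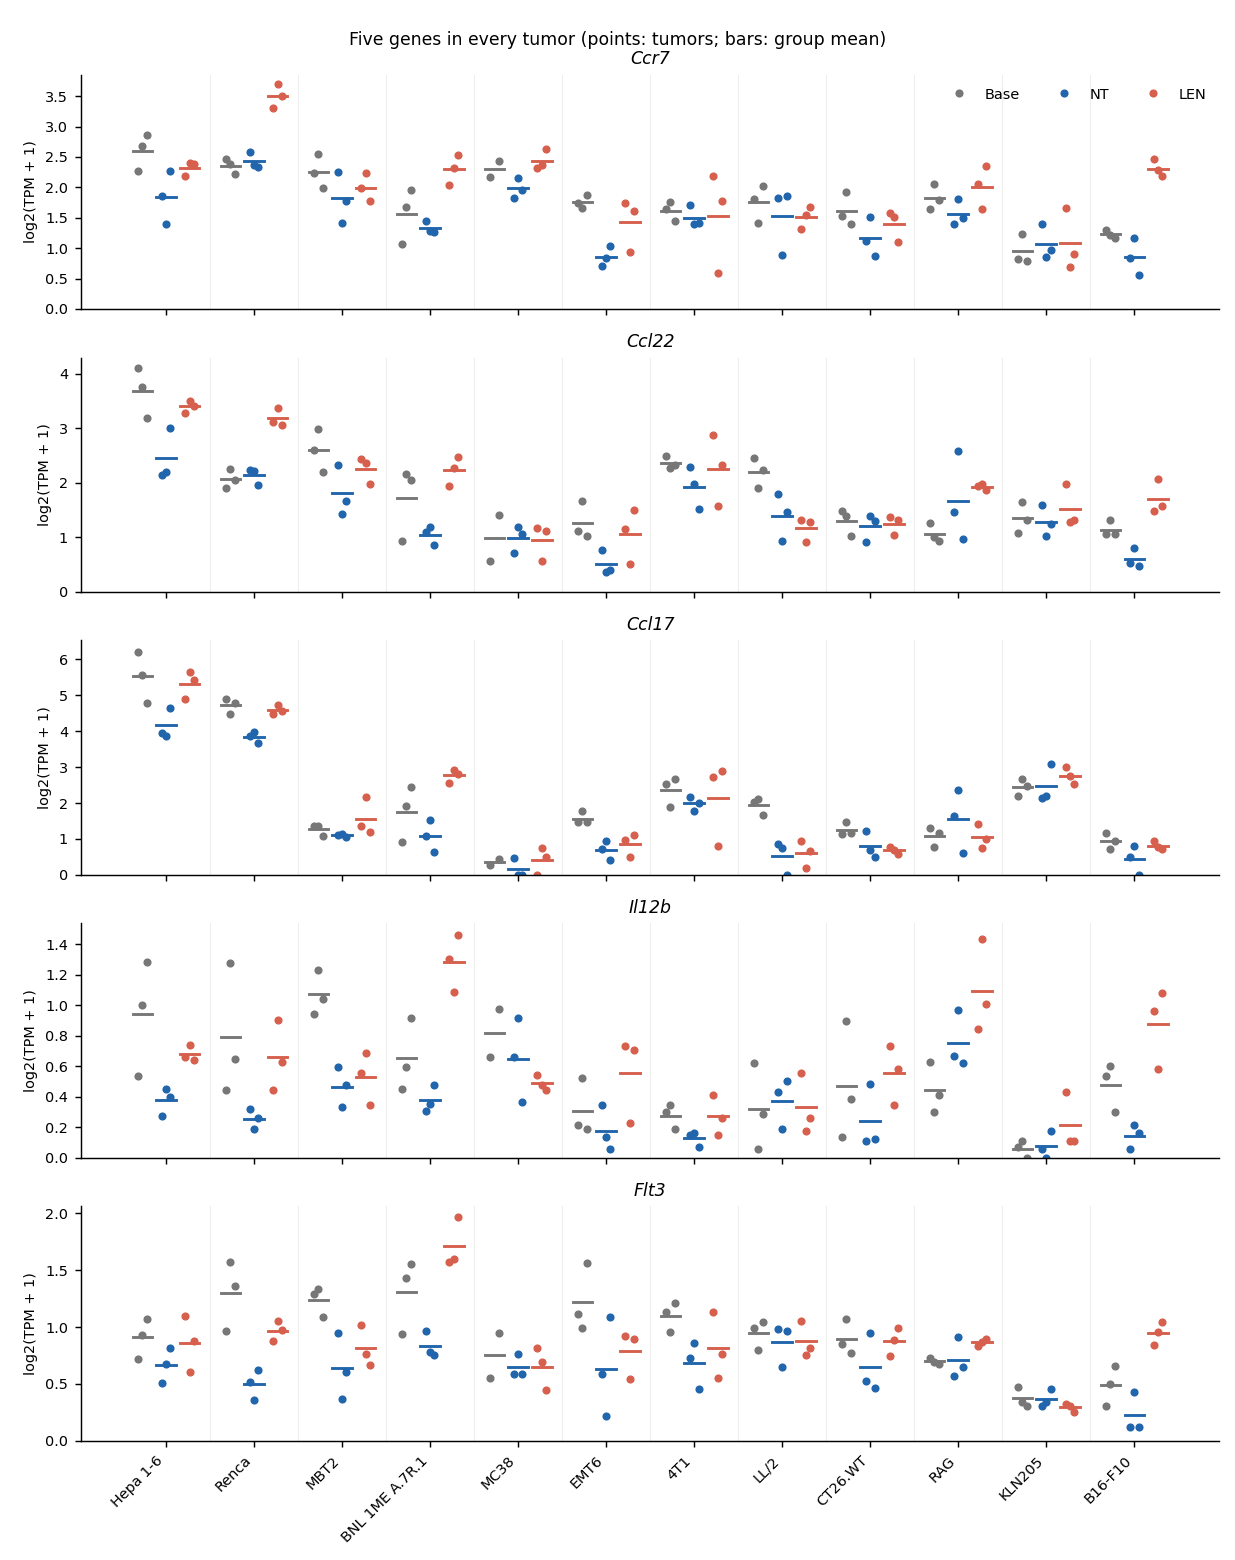
Ccr7, Ccl22, Ccl17, Il12b and Flt3 in every tumor of the 12 models, as log2(TPM + 1); points are tumors, bars are group means, grey is Base, blue NT and red LEN, with a separate vertical axis for each gene. In BNL 1ME A.7R.1 the red points lie above the blue points for all 5 genes, and Ccl17 lies highest in Hepa 1-6 and Renca in every group.

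Il12b was at low levels throughout, between 0 and 1.76 TPM. In BNL 1ME A.7R.1 it was 0.24, 0.28 and 0.39 TPM in NT and 1.47, 1.13 and 1.76 TPM in LEN (0.91, SE 0.15; adjusted p = 0.00619), and in B16-F10 0.04, 0.16 and 0.12 TPM against 0.95, 0.50 and 1.12 TPM (0.73, SE 0.16; adjusted p = 0.0398). LEN tumors were above NT tumors without overlap in both, and also in Hepa 1-6 and Renca, where Il12b did not pass (0.30, adjusted p = 0.253, and 0.40, adjusted p = 0.129). Flt3, the receptor for the growth factor of DC precursors, rose in BNL 1ME A.7R.1 from 0.95, 0.72 and 0.69 TPM to 1.97, 2.02 and 2.91 TPM (0.88, SE 0.17; adjusted p = 0.0108). In B16-F10 it rose from 0.09, 0.35 and 0.09 TPM to 0.79, 0.94 and 1.06 TPM (0.72, SE 0.14; adjusted p = 0.0281). In Renca it was 0.43, 0.28 and 0.54 TPM in NT and 0.84, 1.08 and 0.96 TPM in LEN, which did not overlap but did not pass (0.47, SE 0.12; adjusted p = 0.0552).

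The cDC1 markers passed in a single case. Xcr1 was 0.62, 0.52 and 0.47 TPM in NT and 1.27, 1.40 and 1.04 TPM in LEN tumors of BNL 1ME A.7R.1 (0.54, SE 0.13; adjusted p = 0.0279). After rescaling to the upper quartile, this change was 0.42 with an adjusted p of 0.0571. Clec9a and Batf3 were also higher in LEN in this model without overlap, at 0.51 (adjusted p = 0.0615) and 0.75 (adjusted p = 0.0843), and did not pass. In Renca, where Clec9a and Batf3 had fallen from Base to NT, LEN tumors stayed low, at 0.17, 0.32 and 0.60 TPM for Clec9a and 0.73, 0.71 and 0.85 TPM for Batf3 (0.032, adjusted p = 0.916, and -0.063, adjusted p = 0.813). Zbtb46 was likewise low in Renca LEN tumors (1.23, 1.76 and 1.45 TPM; -0.19, adjusted p = 0.435). LL/2 kept its high Clec9a in each group, at 8.16, 7.34 and 7.15 TPM in NT and 5.76, 5.99 and 6.86 TPM in LEN, with no overlap and no call (-0.25, SE 0.11; adjusted p = 0.362).

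Fscn1 moved in both directions. In Renca it fell from 36.46, 32.06 and 36.98 TPM in NT to 21.19, 20.09 and 21.50 TPM in LEN (-0.72, SE 0.082; adjusted p = 0.00388). In BNL 1ME A.7R.1 it fell from 410.52, 418.66 and 386.40 TPM to 330.16, 352.97 and 299.16 TPM (-0.31, SE 0.073; adjusted p = 0.0236). In B16-F10 it rose from 14.60, 16.30 and 17.14 TPM to 22.46, 27.35 and 23.04 TPM (0.57, SE 0.10; adjusted p = 0.0233). None of these pairs of groups overlapped, and in Renca and BNL 1ME A.7R.1 the direction was opposite to that of Ccr7. In B16-F10 the Fscn1 call was lost on leaving out any 1 of the 6 tumors, the Flt3 and Il12b calls were each lost in 5 of these 6 cases, and the Ccl22 call in 3. In BNL 1ME A.7R.1 the Xcr1 call was lost in 5 of 6 cases and the Fscn1 call in 3, and the other 10 of the 16 calls held in each case.

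The study classed these same models, B16-F10, Renca and BNL 1ME A.7R.1, as high in microvessel density (MVD) and low in a T cell-inflamed gene score. This split was applied to the members after the calls by model were seen, so its values are given without a test. Each SE comes from the spread between tumors of a model and group, and does not measure the spread between models. The mean LEN change over these 3 models against the other 9 was 1.16 (SE 0.16) and 0.26 (SE 0.090) for Ccr7, 1.11 (SE 0.17) and 0.28 (SE 0.096) for Ccl22, and 0.94 (SE 0.20) and 0.22 (SE 0.12) for Ccl17. It was 0.69 (SE 0.093) and 0.11 (SE 0.054) for Flt3, and 0.68 (SE 0.084) and 0.16 (SE 0.048) for Il12b. For Xcr1 it was 0.29 (SE 0.074) and 0.0065 (SE 0.043). For Clec9a it was 0.36 (SE 0.16) and -0.00040 (SE 0.090), and for Batf3 0.35 (SE 0.19) and -0.085 (SE 0.11). It was -0.021 (SE 0.091) and -0.041 (SE 0.053) for Zbtb46, and -0.15 (SE 0.10) and -0.039 (SE 0.058) for Fscn1, whose changes in the 3 models differed in sign.

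Ccl17 and Ccl22 lie on the same strand of chromosome 8 with 58.8 kb between them, Ccl22 at chr8:94745590-94751699 and Ccl17 at chr8:94810453-94812036 (GRCm38, plus strand). Since this pair had the highest r of the 45 pairs over the model-by-group means, sequences upstream of their RefSeq starts are shown (RefSeq, GRCm38.p6, plus strand, 5′ to 3′). The first, chr8:94810203-94810452, ends just before the RefSeq start of Ccl17. The second, chr8:94745434-94745589, stops before the first exon that GENCODE gives for Ccl22, so that the 94 bases next to its RefSeq start are not shown. Capitals mark, in Ccl17, TTC and GAA with 3 or 4 bases between them, the palindromic letters that STAT factors can bind. In Ccl22 they mark, on the minus strand, GGGA and CC with 4 bases between them, letters found in many NF-kappa-B sites.
Ccl17: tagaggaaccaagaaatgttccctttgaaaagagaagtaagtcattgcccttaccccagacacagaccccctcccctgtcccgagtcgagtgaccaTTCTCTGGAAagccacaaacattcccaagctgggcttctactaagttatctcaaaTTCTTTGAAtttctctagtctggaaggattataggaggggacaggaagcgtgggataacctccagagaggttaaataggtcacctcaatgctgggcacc
Ccl22: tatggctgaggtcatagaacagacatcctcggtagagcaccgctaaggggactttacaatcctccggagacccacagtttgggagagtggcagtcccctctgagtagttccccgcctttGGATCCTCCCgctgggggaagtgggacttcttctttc
Of 32851 RefSeq promoters, searched on both strands over the 250 bases before the start, 7.02% held TTC and GAA 3 bases apart, 5.85% the same 4 bases apart and 17.6% GGGA and CC 4 bases apart. Of the 9 members with a promoter in that table, Batf3 also held TTC and GAA 3 bases apart, and no other held any of the 3 motifs. A match is a description of the letters and not of binding.

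Over the 36 model-by-group means, r was 0.81 for Ccl17 with Ccl22, 0.70 for Xcr1 with Il12b, 0.65 for Flt3 with Il12b, 0.64 for Ccr7 with each of Ccl22 and Il12b, and 0.33 at the median of the 45 pairs. Among tumors of the same model and group (deviations from the group mean over all tumors), all 45 values were above 0, from 0.078 (Fscn1 with Il12b) to 0.61 (Ccr7 with Ccl22). Xcr1 and Clec9a, both cDC1 markers, had r = 0.35 over the means and 0.49 within groups. The points share libraries and their scaling, which enters every pair.

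**Figure D4:**
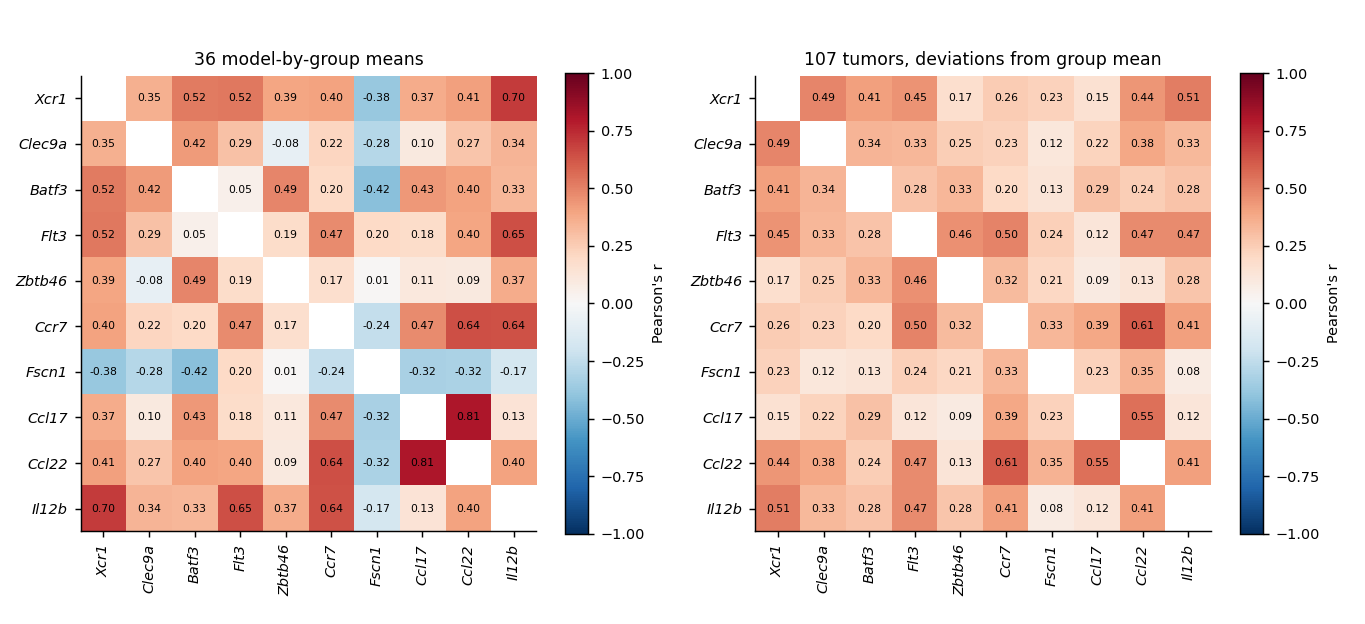
Pearson's r between each pair of the 10 genes in log2(TPM + 1), over the 36 model-by-group means (left) and over all tumors after subtracting the group mean (right); red is positive and blue negative. Fscn1 has negative r with 7 of the 9 other genes at left and with none at right, and Ccl17 with Ccl22 is the highest cell at left.

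The genes most like each member over the 36 means, among 17427 other genes (17428 for Xcr1, Flt3 and Il12b) with a mean of at least 1 TPM, gave a mixed picture. Ccl22 was followed by Ccl17 (r = 0.81), F7 (0.77) and Il4i1 (0.76), an enzyme of mature DC. Xcr1 was followed by Fam175b (0.81), Itgae (0.80), the CD103 chain carried by cDC1, and Cd74 (0.78), the invariant chain of MHC class II. The genes nearest to Flt3 were Tnnt3 (0.76) and Myoz1 (0.72), both of skeletal muscle, and Ccr2 (0.71), a receptor of monocytes. Il12b was followed by Rnase6 (0.76), Myh4 (0.75), again of skeletal muscle, and Cd7 (0.75). For Batf3 these were Tlr12 (0.89), Khdrbs3 (0.88) and Atp8a1 (0.85), for Clec9a D930015E06Rik (0.87), Dock10 (0.84) and Arl4a (0.80), and for Zbtb46 Tbc1d2b (0.82), Nod1 (0.82) and Gimap4 (0.81). Ccr7 had Napsa (0.80), Fcho1 (0.79) and Arl4d (0.78), Fscn1 had Pxdn (0.90), Ubtd2 (0.90) and Htra1 (0.88), and Ccl17 had Rnf43 (0.92), Gipc2 (0.92) and 1110028F11Rik (0.91).

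Other genes of the DC programs were counted in the same fits. Over all genes, 10.7% were higher and 7.56% lower in LEN against NT, and 11.7% higher and 11.4% lower in NT against Base. Of 18 further genes of mature and migratory DC, 9 were higher and 1 lower in LEN against NT (median 0.20), with the largest changes in Tnfrsf9 (0.75, adjusted p = 1.64e-10), a costimulatory receptor, and in Cd274 (0.59, adjusted p = 2.41e-05) and Pdcd1lg2 (0.56, adjusted p = 0.000173), the ligands of PD-1. The lower gene was Marcksl1 (-0.22). Of the costimulatory molecules and CD83 that mature DC display, Cd80 was higher (0.30, limma adjusted p = 0.000852), whereas Cd40, Cd83 and Cd86 did not pass (-0.022, -0.13 and -0.038). Of 10 further cDC1 genes, 4 were higher and 0 lower (median 0.12): Cd24a (0.73), Nfil3 (0.40), Id2 (0.30) and Irf8 (0.25). All 4 are widely expressed or shared with other leukocytes, and the cDC1-enriched Tlr3, Naaa, Itgae and Wdfy4 did not pass with all tumors. Without the 4T1 LEN tumor rich in Gm26917, 6 of these 10 passed, with Itgae (0.14, limma adjusted p = 0.0119) and Btla (0.13, adjusted p = 0.0310) added. Of 9 cDC2 genes tested, 4 were higher and 1 lower (median 0.12), led by Esam (-0.74), which endothelial cells also carry, Klf4 (0.46) and Cd7 (0.32). Of 10 plasmacytoid DC genes, 8 were higher and 1 lower (median 0.33). Among the higher were Cox6a2 (0.54), Irf7 (0.50), a factor of the interferon response, and Siglech (0.45). Tcf4 was the lower gene (-0.16, limma adjusted p = 0.00518). From Base to NT, 9 of the 18 mature DC genes were lower and 0 higher (median -0.25), 6 of the 10 cDC1 genes lower and 2 higher, 7 of the 9 cDC2 genes lower and 0 higher, and 5 of the 10 plasmacytoid genes lower and 1 higher. The cDC2 lectins Clec10a (-0.89) and Mgl2 (-0.64) had the largest falls of these.

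The signals that feed, draw or answer DC were mixed, and the shares over all genes are those given for the DC programs. Of 8 growth factors and recruiting ligands, 4 were higher and 0 lower in LEN: Ccl4 (0.68), Ccl3 (0.66), Kitl (0.33) and Flt3l (0.19, adjusted p = 0.0378), the ligand of Flt3. Xcl1, the ligand of Xcr1, did not pass (0.11, adjusted p = 0.594). Of 12 partners of the members, 3 were higher and 0 lower: Stat4 (0.38, adjusted p = 0.00102), which acts below the interleukin 12 receptor, Ccl19 (0.16, adjusted p = 0.0257) and Ccr4 (0.10, adjusted p = 0.00626), the receptor of Ccl17 and Ccl22. Reads of Ccl19 and Ccl21a may be split with near-identical copies, and their values are uncertain. Il12a, the p35 chain that pairs with Il12b in interleukin 12, was at -0.015 (adjusted p = 0.868), and Il23a, which pairs with Il12b in interleukin 23, at 0.095 (adjusted p = 0.264). From Base to NT, 4 of the 12 partners were lower, with Stat4 at -0.38, Il12rb2 at -0.20, Ccl19 at -0.16 and Ccr4 at -0.14. In the growth factor list, Flt3l was lower (-0.24) and Ccl20 higher (0.10).

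Markers of other cells, some of which can carry these genes, were counted as well, and their part in the result was not tested. Over all genes, 10.7% were higher and 7.56% lower in LEN against NT, and 11.7% higher and 11.4% lower in NT against Base. A list with 1 gene called is therefore not read as a change. In LEN against NT, 5 of 8 T cell markers were higher and 0 lower (Cd3e 0.47, Cd3g 0.40, Cd3d 0.37), with summed levels of 2.36 to 191.61 TPM (median 14.2) in NT and 3.45 to 166.75 TPM (median 24.7) in LEN. Of 5 NK cell markers, 3 were higher (Klrk1 0.39, Ncr1 0.28, Klrb1c 0.14), and 5 of 5 neutrophil markers were (S100a9 0.90, S100a8 0.73, Retnlg 0.57). Of 8 macrophage markers, 6 were lower (Mrc1 -0.53, Csf1r -0.45, C1qa -0.39), with summed levels of 63.33 to 1356.81 TPM (median 519) in NT and 204.61 to 1264.66 TPM (median 362) in LEN. All 6 endothelial markers were lower (Cdh5 -1.17, Cldn5 -1.09, Emcn -1.0), with medians of 48.1 TPM in NT and 23.6 TPM in LEN. Of 4 B cell markers tested, limma called 0 (1 lower at an unadjusted p under 0.05). Keratinocyte markers had 1 of 6 higher (Krt14 0.59), Langerhans cell markers 1 of 3 (Cd207 0.19), and fibroblast markers 1 of 6 higher (Dcn 0.36) and 1 lower (Col1a1 -0.29). Of 5 melanocyte and 5 hepatocyte markers limma called 0 in each list (1 and 0 at an unadjusted p under 0.05). From Base to NT, 4 of 8 T cell, 5 of 5 NK cell, 2 of 8 macrophage, 4 of 6 endothelial, 3 of 6 fibroblast, 2 of 5 neutrophil, 1 of 6 keratinocyte, 1 of 3 Langerhans cell and 1 of 5 melanocyte markers were lower, and 1 of 4 B cell markers was higher.

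Of these markers, the endothelial ones were lower in all 3 models with calls, whereas macrophage and fibroblast markers differed in direction. The mean endothelial sum was 30.96 TPM in NT and 14.2 TPM in LEN in B16-F10 (3 of 6 lower), 122 and 42.6 TPM in BNL 1ME A.7R.1 (6 of 6 lower), and 54.7 and 14.6 TPM in Renca (6 of 6 lower). The mean macrophage sum was 79.8 TPM in NT and 246 TPM in LEN in B16-F10 (7 of 8 markers higher), 716 and 356 TPM in Renca (7 of 8 lower), and 841 and 894 TPM in BNL 1ME A.7R.1 (1 of 8 lower). The T cell sum was 6.57 and 26.0 TPM in B16-F10 (7 of 8 higher), 13.9 and 28.4 TPM in BNL 1ME A.7R.1 (4 of 8 higher), and 14.8 and 19.9 TPM in Renca (2 of 8 higher, 1 lower). The fibroblast sum was 135 and 522 TPM in B16-F10 (6 of 6 higher), against 8696 and 6840 TPM in BNL 1ME A.7R.1 (4 of 6 lower) and 504 and 307 TPM in Renca (0 of 6 called). Ccr7 and Ccl22 rose in all 3 models. Of 8 macrophage markers, 7 were higher in B16-F10, 7 lower in Renca and 1 lower in BNL 1ME A.7R.1. Any relation between these changes was not tested.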

How the data were processed

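RNA from 35 Base, 36 NT and 36 LEN tumors was analyzed in 3 groups (Base, NT and LEN) of 12 models, as the labels give them. Per the labels and the study's methods, the authors depleted ribosomal RNA, sequenced on NovaSeq and NextSeq instruments (which tumors on which is not given in the sources used here), trimmed with Trimmomatic 0.36, mapped with STAR 2.5.2b to mm10 (Ensembl 88), and quantified by RSEM 1.2.31. The deposited values are TPM, so depth and counting error are unknown. Gene types and positions came from GENCODE M21 (50376 of 50686 genes matched). Values were analyzed as log2(TPM + 1), after leaving out genes with a mean under 0.1 TPM in the tumors compared, with limma 3.58.1 (R 4.3.3; lmFit, then eBayes with its trend option) across all genes and Benjamini-Hochberg adjustment at 0.05. A model-by-group mean design gave the mean change over models and the F test of differences between models; each model was also fitted alone. All 10 members passed the filter on the mean over models, and 118 of 120 member-by-model cases passed in each comparison. Scripts were tested on simulated data. Alternatives were a pseudocount of 0.1, a minimum of 1 TPM or none, rescaling to the upper quartile or to protein-coding genes, no trend, a replicate block, the study's own two-group test, and leaving out each tumor or model.

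The members and gene lists were chosen with earlier results of these data known. The rule for named genes was the 10 members, up to 3 genes per list with the largest absolute LEN change among those passing, and per member the 3 genes with the highest r; other genes were named after their values were seen. The protein sequences and the Ccr7 promoter were not analysed here.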

Additional observations from a re-analysis of the deposited data

Results flagged for a closer look

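For 6 genes the change from NT to LEN differed between the 12 models by limma's F test, with adjusted p = 0.00134 for Il12b, 0.0114 for Flt3, 0.0139 for Fscn1, 0.0194 for Ccr7, 0.0295 for Ccl22 and 0.0298 for Ccl17. Over all genes, 28.7% passed this test. The count of 6 fell to 1 without BNL 1ME A.7R.1, 2 without B16-F10, 3 without Renca and 1 with the replicate block. The changes by model ran from -0.72 (Renca) to 0.57 (B16-F10) for Fscn1, from -0.50 (RAG) to 1.69 (BNL 1ME A.7R.1) for Ccl17, from -0.23 (LL/2) to 1.18 (BNL 1ME A.7R.1) for Ccl22, from -0.0098 (LL/2) to 1.45 (B16-F10) for Ccr7, from -0.16 (MC38) to 0.91 (BNL 1ME A.7R.1) for Il12b and from -0.075 (KLN205) to 0.88 (BNL 1ME A.7R.1) for Flt3.

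For 9 genes the change from Base to NT differed between models by the same test, with adjusted p = 0.000759 for Fscn1, 0.00294 for Zbtb46, 0.0043 for Clec9a, 0.00493 for Xcr1, 0.0138 for Ccl22, 0.0156 for Ccl17, 0.0173 for Batf3, 0.028 for Il12b and 0.0492 for Flt3. Over all genes, 50.2% passed. The count of 9 fell to 5 without Renca, with a pseudocount of 0.1, with upper-quartile rescaling or with the replicate block.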

How the results depend on the processing

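TPM keeps no depth, so the precision of low values such as Xcr1 and Il12b is unknown, and with 3 tumors per group the calls within models are fragile. A minimum mean of 1 TPM removed Xcr1, Flt3 and Il12b from the test and left 3 members called in LEN against NT. The study's own two-group test called 0 member-by-model cases in either comparison after adjustment; at an unadjusted p under 0.05 it gave 21 higher and 5 lower of 118 in LEN against NT (6.52% and 4.64% of all gene-by-model tests) and 2 higher and 19 lower of 118 in NT against Base (7.65% and 6.41%), where limma at the same unadjusted p gave 23 and 3, and 4 and 31. Replicate numbers did not pair the tumors (r of same-numbered tumors from -0.076 to 0.076 in LEN against NT, and from -0.14 to 0.10 in NT against Base, where 1 of 25 pairs was over 0.1). With the replicate block, 5 members were called in LEN against NT, 4 higher and Fscn1 lower (-0.15), 5 were lower in NT against Base, 1 had a LEN change that differed between models, and 5 had a Base-to-NT change that did. The last count, whose alternatives were chosen after seeing the data, was also 5 with a pseudocount of 0.1 or upper-quartile rescaling, 5 without Renca (5 to 9 without a model) and 7 to 9 without a tumor. Under the replicate block Clec9a was -0.064 and Batf3 -0.032, and all-gene calls went from 2747 higher and 1938 lower to 1494 and 1381 in LEN against NT, and from 3002 and 2917 to 1136 and 1178 in NT against Base. Fscn1 from Base to NT was -0.0033 after rescaling to the upper quartile and -0.014 after rescaling to protein-coding genes.

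Leaving out each tumor gave 5 members called in LEN against NT in each of 72 fits, 4 to 6 with a LEN change that differed between models, 12 to 17 member-by-model calls and 9 members lower in NT in each of 71 fits. Member-by-model calls in NT against Base ranged from 5 (without Renca NT replicate 3) to 11. Leaving out each model gave 4 to 6 members called in LEN against NT, 6 to 9 in NT against Base and 1 to 8 with a LEN change that differed (2 without B16-F10, 1 without BNL 1ME A.7R.1, 3 without Renca and 8 without RAG). The LEN change of Batf3 ranged from -0.013 to 0.048 without a tumor and from -0.043 to 0.059 without a model, below 0 without MBT2 NT replicate 5, EMT6 LEN replicate 4, B16-F10 (-0.0070), BNL 1ME A.7R.1 or Hepa 1-6 (-0.0086). The causes were not tested.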
